A study of Drosophila melanogaster with 2 samples.

Results

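The genes described here are 9 trithorax group and coactivator genes of Drosophila melanogaster, out of 13945 protein-coding genes of the Ensembl annotation. They are brm, osa, mor, trx, Trl, ash1, kis, Gcn5 and nej. A peak summit was taken to be in reach of a gene when it lay within 5 kb of one of its start sites or inside its span. Of 2487 reproducible summits in the genome, 17 were in reach of 7 of the 9 genes, and none was in reach of mor or ash1. The genes were chosen by the positions and strengths of these same peaks, so the counts of summits at them are a description and were given no test.

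The data are peak lists from chromatin immunoprecipitation followed by sequencing (ChIP-seq), which recovers the DNA bound by a chosen protein. The material was whole fly embryos collected over the first 12 hours (0 to 12 h), male and female together, of the strain E(spl)m5-GFP, a stable transgenic line in which E(spl)m5-HLH carries GFP at its C terminus. A peak list from embryos without the tag was not used here. Both samples belong to 1 group, as biological replicates 3 and 4, so the design holds no contrast between conditions. Their free-text descriptions name them as input controls, whereas the assay and antibody labels name an immunoprecipitation, and the values are read here as those of an immunoprecipitation. Whole embryos mix all cell types, so a peak does not tell in which cells the gene was occupied.

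Trithorax group proteins keep genes active through cell division, and were found through their effects on Hox genes, where they oppose the Polycomb group. Some are subunits of the Brahma nucleosome remodelling complex, others methylate or acetylate histones, and others bind DNA or slide nucleosomes. The tagged protein belongs to the Hairy and Enhancer of split family of basic helix-loop-helix repressors, which Notch signalling induces and which recruit the corepressor Groucho. Proteins of its family bind CACGTG and CACGCG, and CACNAG, the N box, is also described for them.

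Each candidate list, for replicate 3, for replicate 4 and for the pooled reads, held 30000 peaks, and the reproducible list, called thresholded here, was the 2487 pooled peaks of highest signal. Signal is the authors' value for a peak relative to the control, on a scale that the sources do not state. The depth of sequencing is unknown. Each list was scaled on its own. Ranks (1 is the strongest) were taken within a list and then set against each other between the replicates. Signals of different lists were related by correlation only, and not by their size.

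In all, 7 of the 9 genes (brm, osa, trx, Trl, kis, Gcn5 and nej) had a thresholded summit in reach, where 24.9% of all protein-coding genes had one (3469 genes). The genes are long, with a median span of 13121 bp against 2166 bp for all protein-coding genes, and a long gene has more room for summits. All 6 of the genes that span 10 kb or more (brm, osa, trx, Trl, kis and nej) had a summit in reach, against 40.8% of the 1977 protein-coding genes of that length. Within 1 kb of a start site, a window that grows with the number of start sites but not with the length of the gene, 5 of the 9 (brm, Trl, kis, Gcn5 and nej) had one, against 11.9% of all protein-coding genes. At least 2 thresholded summits were in reach of 6 of the 9, against 6.72% of all protein-coding genes. Since these summits chose the genes, nothing is read from the distance between these shares.

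**Figure D1:**
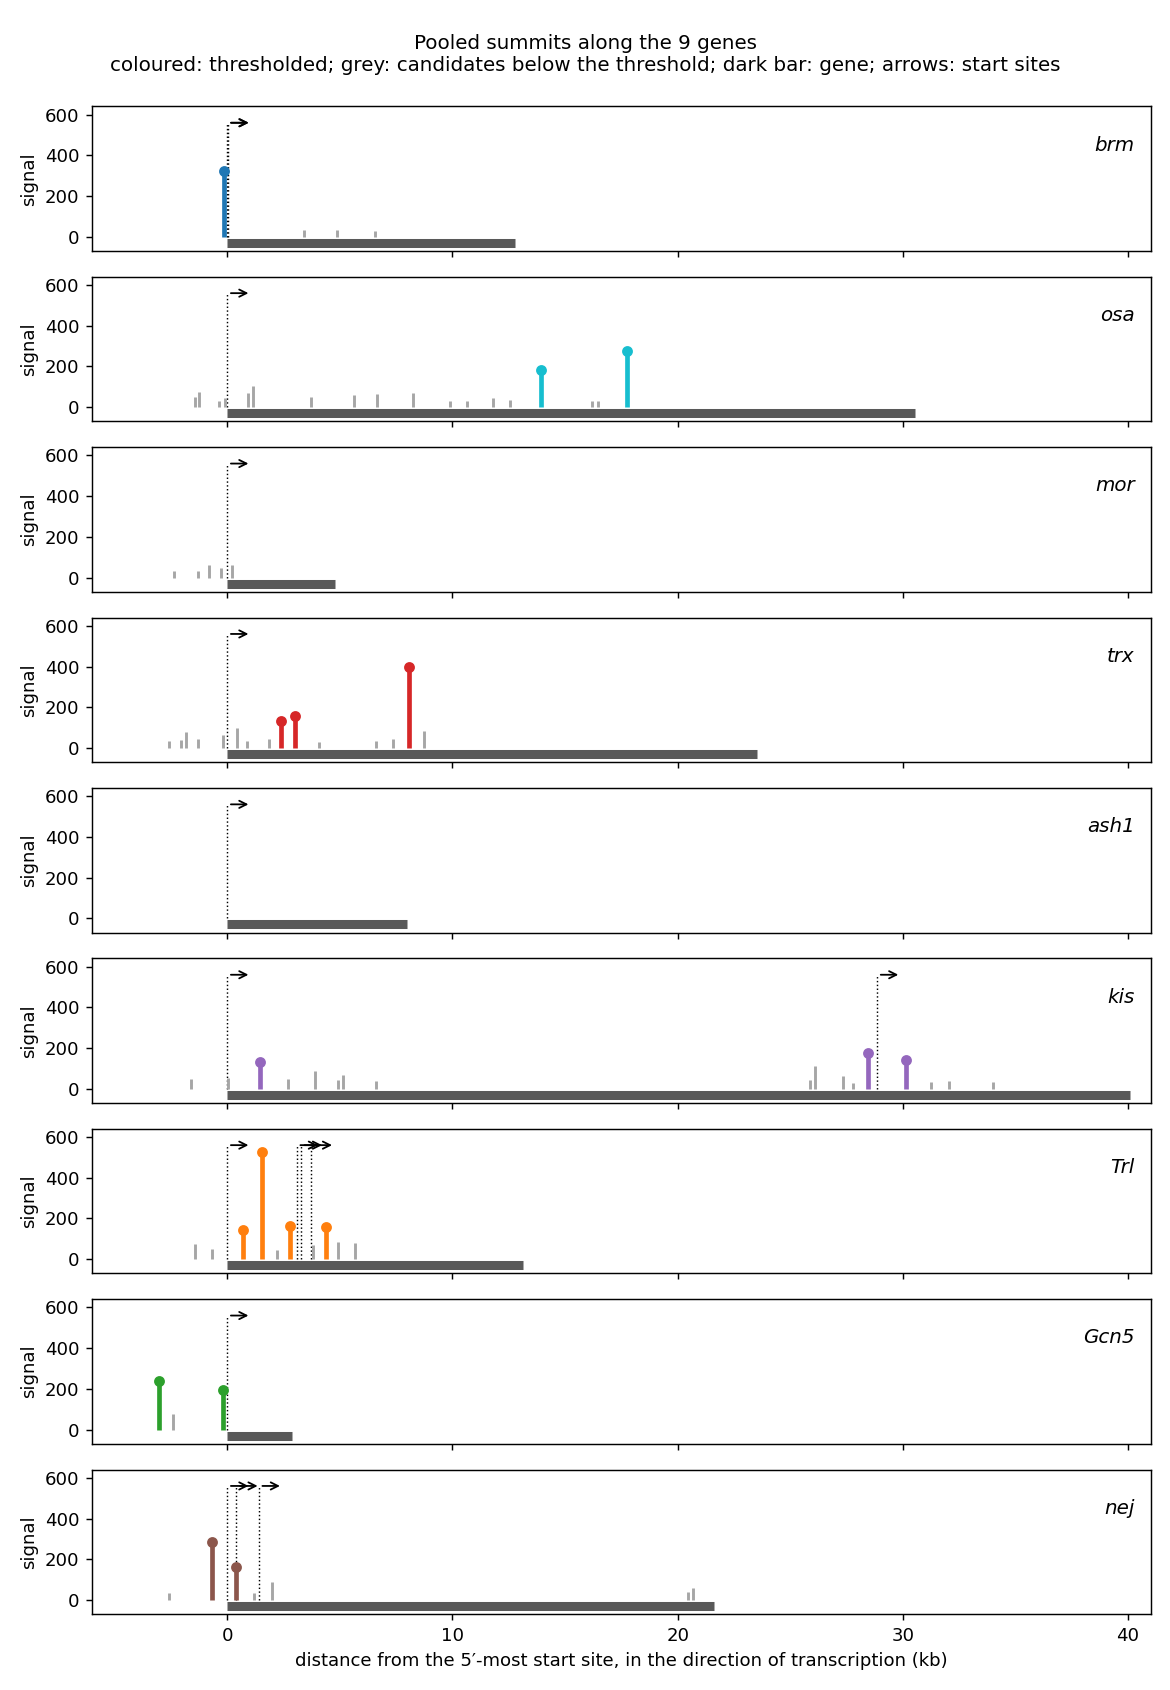
Signal of each pooled summit (y axis, the authors' scale) by its distance from the 5′-most start site of the gene in kb (x axis), for the 9 genes. Coloured stems are the 17 thresholded summits, grey ticks the candidates below the threshold, arrows the annotated start sites and the dark bar the gene; the tallest stem is at Trl (528), and mor has only short grey ticks while ash1 has none.

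The 17 summits ranked from 85 to 1963 in the thresholded list and did not reach its top. Their signals ran from 129.7 to 528 with a median of 176, against a range of 114 to 2284 and a median of 162 over all thresholded summits. Of the 17, 11 were among the 1243 strongest of the list and 1, at Trl, was among the 100 strongest. Introns held 12 of the 17, against 42.9% of all thresholded summits, and intergenic DNA held 3, against 34.6%. Exons of non-coding RNA genes held 2, against 4.8%. None lay in a 5′ UTR or a coding exon, where 15.8% and 0.925% of all thresholded summits lay. Every summit inside these long genes was counted, so nothing is read from the distance between these shares. In all, 12 of the 17 (70.6%) were within 1 kb of the start site of some gene, member or neighbour, against 60.2% of all thresholded summits.

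The Brahma complex is represented by brm, osa and mor. brm (FBgn0000212, 3L 15970082 to 15982869, minus strand) encodes the ATPase that drives nucleosome remodelling by the complex. Its single thresholded summit, at 3L 15983003, lay in intergenic DNA 134 bp upstream of brm and 132 bp from the start of Arl1, a gene of an Arf-like GTPase that is read the other way, so the summit cannot be given to either gene. Its signal was 326 in the pooled list, at rank 288. In replicate 3 it ranked 98, with a signal of 269.8, and in replicate 4 it ranked 2155, with a signal of 63.9. The replicates therefore placed this summit at very different ranks, although their summits fell 20 and 23 bp from the pooled one. The other 3 pooled candidates in reach were weak, the strongest of them at rank 22212, and lay over coding exons of small genes nested in an intron of brm.

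osa (FBgn0261885, 3R 17687818 to 17718350, minus strand) encodes the ARID-domain subunit that marks the BAP form of the complex. Both of its thresholded summits were deep inside the gene, in intron 4 of 15, at 17749 and 13917 bp from its start site. The stronger one, at 3R 17700601, had a pooled signal of 276 (rank 420) and lay 140 bp from the start site of lncRNA:CR46036. It ranked 167 in replicate 3 and 1729 in replicate 4. The weaker one, at 3R 17704433, had a signal of 182 (rank 991), lay in an exon of lncRNA:CR46035, and ranked 1194 in replicate 3 and 994 in replicate 4, so here the replicates were close. A candidate 1141 bp inside osa from its start site missed the threshold at rank 2934 (signal 105), and had a match in replicate 3 at rank 2251 and none in replicate 4.

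mor (FBgn0002783, 3R 15968134 to 15972913, minus strand) encodes the core scaffold subunit shared by both forms of the complex, and had no thresholded summit in reach. Its 5 pooled candidates were weak, from rank 7829 to 22809, with signals of 33.4 to 60.0. They lay between 2368 bp upstream and 197 bp downstream of its start site, around the divergent start of Hel89B. In replicate 3 the strongest candidate in reach ranked 4007, 133 bp upstream of mor, and in replicate 4 it ranked 2988, 808 bp upstream. The replicates thus put their best candidates at different places, and neither was among the 2487 strongest of its list. The thresholded summit nearest to the start of mor was 16519 bp away.

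The RefSeq sequence under the brm summit and under the stronger osa summit is given on the plus strand of dm6, 5′ to 3′, with 100 bp to each side. They are printed because both ranked far better in replicate 3 than in replicate 4, and both are rich in A and T. Capitals mark a match to one of the 10 motifs searched; the osa window holds none.
brm summit, chr3L:15982903-15983103: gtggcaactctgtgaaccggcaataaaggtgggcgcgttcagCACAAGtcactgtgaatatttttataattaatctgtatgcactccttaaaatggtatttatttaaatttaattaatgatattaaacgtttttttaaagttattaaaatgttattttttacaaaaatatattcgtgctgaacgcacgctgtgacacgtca
osa summit, chr3R:17700501-17700701: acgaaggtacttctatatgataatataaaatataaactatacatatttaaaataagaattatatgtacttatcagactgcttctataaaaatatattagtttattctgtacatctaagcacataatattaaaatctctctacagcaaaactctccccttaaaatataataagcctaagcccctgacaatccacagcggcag

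The histone methyltransferase genes differed from each other. trx (FBgn0003862, 3R 14263358 to 14286903, minus strand) gives the group its name and encodes a methyltransferase of the COMPASS family. It had 3 thresholded summits, all in its own introns and none within 1 kb of its single start site. The strongest, at 3R 14278814 in intron 2 of 8 and 8089 bp from the start, had a signal of 399 (rank 177). It ranked 240 in replicate 3 and 137 in replicate 4, with signals of 193 and 221, which made it the summit among the 17 that stood highest in replicate 4. The other summits, at 3R 14283914 and 14284501 in intron 1, were 587 bp apart. The first had a signal of 156 and ranked 1020 in replicate 3 and 1511 in replicate 4; the second had 132 and ranked 2477 and 1264. A candidate in the 5′ UTR, 412 bp from the start site, missed the threshold at rank 3437, and had no match in replicate 4.

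ash1 (FBgn0005386, 3L 19590773 to 19598755, minus strand) encodes another histone methyltransferase, and the gene had no candidate at all in reach among the 30000 pooled or the 30000 replicate 3 peaks. Of all protein-coding genes, 83.2% had at least 1 pooled candidate in reach. Replicate 4 had 1 candidate, at rank 10067 and 4989 bp upstream. Yet the third-strongest peak of the genome lay just past its end: the summit at 3L 19590614 was 159 bp beyond the 3′ end of ash1 and 8141 bp from its start, outside the distance used here. That peak had a pooled signal of 1631 and ranked 3 in both replicates, and its nearest start site, 90 bp away, was that of CG14100. The empty stretch over ash1 was therefore next to one of the strongest sites of the list.

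The trx windows, again on the plus strand, are printed because the summits of this gene held most of the motif matches. The strongest one carries a CACGCG that starts 18 bp before the summit and runs into a CTCTCTC, which is GAGAGAG on the other strand, and a longer CT run lies 56 bp to the right. The weakest carries a pair of CAGCTG sites 7 bp apart from first base to first base, and a CACAAG, a form of CACNAG.
trx strongest summit, chr3R:14278714-14278914: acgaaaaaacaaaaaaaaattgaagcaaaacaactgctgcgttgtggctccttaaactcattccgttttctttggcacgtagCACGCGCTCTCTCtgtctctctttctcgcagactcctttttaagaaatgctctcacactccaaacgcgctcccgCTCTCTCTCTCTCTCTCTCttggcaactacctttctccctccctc
trx weakest summit, chr3R:14284401-14284601: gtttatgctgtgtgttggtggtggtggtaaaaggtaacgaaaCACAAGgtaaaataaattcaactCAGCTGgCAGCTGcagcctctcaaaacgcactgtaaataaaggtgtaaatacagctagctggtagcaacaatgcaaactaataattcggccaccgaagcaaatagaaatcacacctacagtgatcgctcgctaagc

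kis (FBgn0266557, 2L 210735 to 250823, minus strand) encodes a chromodomain helicase that promotes transcription elongation, and is the longest of the genes. Its 3 thresholded summits sat near its start sites, at opposite ends of 28668 bp. The strongest, at 2L 222381, lay 419 bp upstream of the inner start site, in intron 11 of 16 of the long transcript, with a signal of 176 (rank 1071). The summit at 2L 220697 lay 1265 bp past the same start site and 1046 bp from lncRNA:CR44220 (signal 142, rank 1655), and that at 2L 249365 lay 1458 bp past the outer one, in an exon of lncRNA:CR44218 (signal 129.7, rank 1963). All 3 stood higher in replicate 4, at ranks 948, 1434 and 1417, than in replicate 3, at ranks 1557, 2722 and 5206. The summit at 2L 249365 was the weakest of the 17. The strongest candidate just below the threshold was also at kis, at 2L 224717 with a signal of 111 (rank 2626) and no summit of either replicate within 100 bp. Replicate 3 had a summit just beyond that limit, 115 bp away at 2L 224832 (rank 968).

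Trl (FBgn0013263, 3L 14747929 to 14761049, minus strand) encodes the GAGA factor, which binds GAGAG repeats and opens chromatin at promoters. It had 4 thresholded summits within 3644 bp, the most of the genes, all in its introns and all between or beside its 4 start sites. The strongest, at 3L 14759507 and 1542 bp inside the gene from the outermost start site, had a signal of 528 (rank 85), the highest of the 17. It ranked 41 in replicate 3 and 340 in replicate 4, with signals of 377 and 152. The summit at 3L 14758257 was 295 bp upstream of an inner start site that Trl shares with CG42507, with a signal of 164 (rank 1205), and ranked 1338 in replicate 3 and 1047 in replicate 4. The summits at 3L 14756687 (signal 157) and 3L 14760331 (signal 141) were 649 and 718 bp from start sites. The summit at 14756687, which is also in an intron of CG42507, ranked 2790 in replicate 3 and 1580 in replicate 4, and the summit at 14760331 ranked 1602 and 1843. The weaker summits of Trl each had a match in both replicates, though 1 fell outside the 2487 strongest of replicate 3. Of all thresholded summits, 92.6% had such matches, and the thresholded list itself rests on both replicates.

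The strongest Trl window and the strongest kis window stand at opposite ends of base composition, with a GC content of 25.4% and 56.2%, and neither holds a match to a motif searched. The Trl window has no GAGAGAG, a form of the repeat that the GAGA factor binds.
Trl strongest summit, chr3L:14759407-14759607: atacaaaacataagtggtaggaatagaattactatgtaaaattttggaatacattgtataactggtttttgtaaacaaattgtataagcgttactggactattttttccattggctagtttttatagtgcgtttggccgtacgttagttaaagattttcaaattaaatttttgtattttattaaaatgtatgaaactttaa
kis strongest summit, chr2L:222281-222481: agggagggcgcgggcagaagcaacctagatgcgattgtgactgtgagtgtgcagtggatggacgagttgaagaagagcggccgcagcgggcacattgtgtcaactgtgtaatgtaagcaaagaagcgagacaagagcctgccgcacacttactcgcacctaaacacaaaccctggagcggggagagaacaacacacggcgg

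The acetyltransferase genes both had summits at their promoters. Gcn5 (FBgn0020388, 3L 12521129 to 12524014, minus strand) encodes the catalytic subunit of the SAGA and ATAC coactivator complexes. Its nearer summit, at 3L 12524191, lay 177 bp upstream of Gcn5, in an intron of ver and 204 bp from the start of ver. The gene ver is read the other way, so this summit cannot be given to either gene. It had a signal of 196 (rank 866) and ranked 485 in replicate 3 and 2316 in replicate 4. The other, at 3L 12527043, was stronger, with a signal of 241 (rank 554) and ranks of 724 and 692. It was 3029 bp upstream of Gcn5 but 312 bp from the start of eIF2beta, a translation initiation factor gene, so it entered the count through the 5 kb distance alone.

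nej (FBgn0261617, X 9665442 to 9687066, minus strand) encodes the CBP coactivator, an acetyltransferase of histone H3. Both of its thresholded summits were close to its 3 start sites. The stronger one, at X 9687756, lay in intergenic DNA 690 bp upstream of the outermost start and 433 bp from lncRNA:CR42657, with a signal of 286 (rank 388). It ranked 201 in replicate 3 and 1396 in replicate 4. The other, at X 9686672, lay 14 bp from an inner start site, the shortest distance among the 17, with a signal of 164 (rank 1207) and ranks of 1220 and 1893. Both nej summits were thus placed higher in replicate 3, by a wide margin for the upstream one.

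The promoter windows of Gcn5 and nej are shown as further summits that stood higher in replicate 3. The Gcn5 window holds 1 CACNAG site on the minus strand and the nej window none of the motifs.
Gcn5 promoter summit, chr3L:12524091-12524291: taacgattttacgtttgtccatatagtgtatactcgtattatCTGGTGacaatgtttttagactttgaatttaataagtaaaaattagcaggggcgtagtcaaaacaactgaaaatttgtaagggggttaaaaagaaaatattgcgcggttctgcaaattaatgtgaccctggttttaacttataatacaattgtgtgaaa
nej upstream summit, chrX:9687656-9687856: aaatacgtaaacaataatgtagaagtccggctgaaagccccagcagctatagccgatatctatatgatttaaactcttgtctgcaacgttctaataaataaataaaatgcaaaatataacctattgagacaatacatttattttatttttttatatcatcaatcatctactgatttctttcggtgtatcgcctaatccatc

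Of the 17 summits, every one had a candidate within 100 bp in both replicates, against 92.6% of all thresholded summits. Those among the 2487 strongest of both replicates numbered 14 (82.4%), where 58.0% of all thresholded summits were. The exceptions were 1 at Trl and 2 at kis, each outside that limit in replicate 3. The ranks in both replicates were among the values behind the choice of the genes, so nothing is read from the distance between these shares. The order of the genes by their best-ranked thresholded summit differed between the replicates. In replicate 3 it ran Trl (rank 41), brm (98), osa (167), nej (201), trx (240), Gcn5 (485) and kis (1557), and in replicate 4 it ran trx (137), Trl (340), Gcn5 (692), kis (948), osa (994), nej (1396) and brm (2155). Trl and trx each headed 1 of the orders, and brm was next to the top of one and at the bottom of the other. Across the 17 summits, replicate signals had a Spearman rho of 0.0686, and their log2 values a Pearson r of 0.327, where the 2302 matched thresholded summits had 0.469 and 0.573. These are correlations across sites of 1 pair of libraries, over a range of signal already narrowed by the threshold. The pooled signals of the 17 span a narrower range still, 129.7 to 528 against 114 to 2284 over all thresholded summits. Nothing is therefore read from the distance between these correlations.

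**Figure D2:**
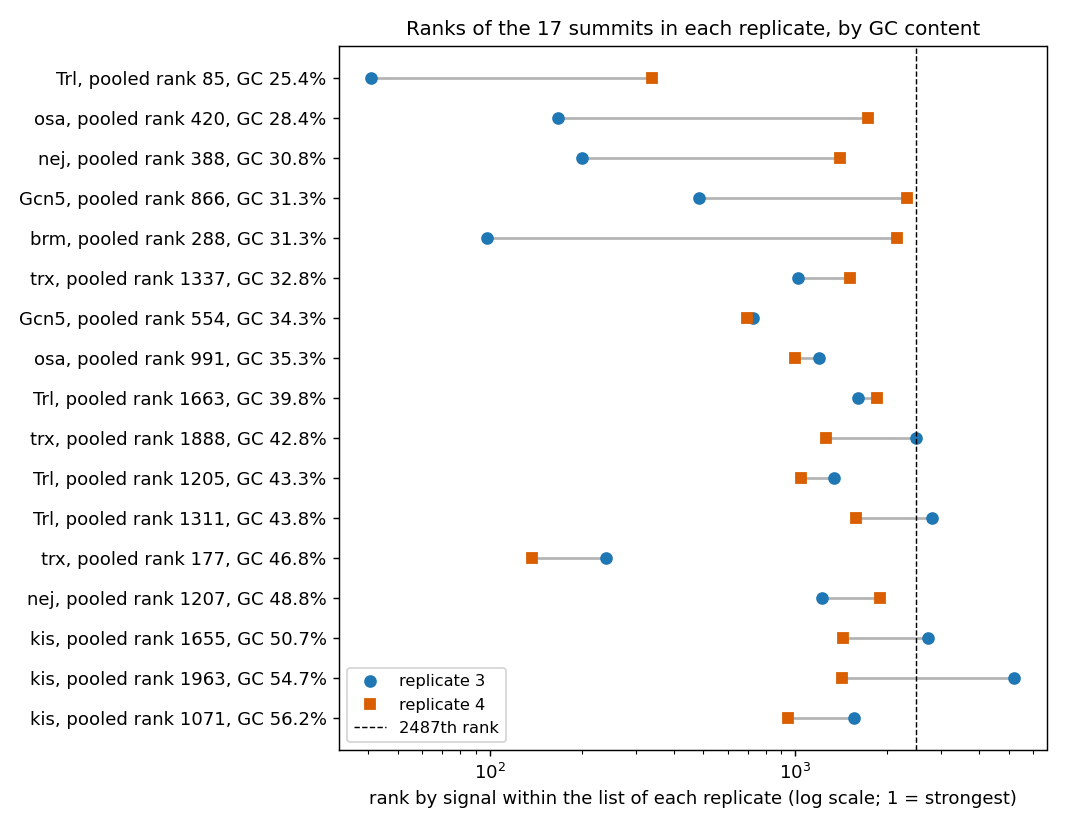
Rank by signal (x axis, log scale, 1 is the strongest) of each of the 17 thresholded summits in replicate 3 (circles) and replicate 4 (squares), with the summits ordered by the GC content of the 201 bp around them. The 5 summits of lowest GC content, from 25.4 to 31.3%, stand higher in replicate 3, and the 3 of highest GC content, all at kis, stand higher in replicate 4.

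Base composition moved with the difference between the replicates. The 17 windows had a median GC content of 39.8%, against 43.3% over all thresholded summits, and 7 of them (41.2%) were under 35%, against 424 of the 2487 in all. Of those 7, 6 had the better rank in replicate 3: the strongest summits of Trl, osa, brm and nej, the promoter summit of Gcn5 and the middle summit of trx. The ratio of the replicate 4 rank to the replicate 3 rank was 22.0 at brm, 10.4 at osa, 8.29 at Trl and 6.95 at nej. None of the 3 windows of 50% GC or more, all at kis, had the better rank in replicate 3. Across the 17, which are summits of only 7 genes, GC content and the log2 ratio of the ranks had a Spearman rho of -0.81.

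The same direction was found over the 2302 matched summits of the genome, with a Spearman rho of -0.32. Under 35% GC, 76.1% of them had the better rank in replicate 3, and at 50% GC or more 33.6% had. The 17 are among these 2302 and had the same direction, and the strongest summits of brm, osa, nej and Trl ranked better in replicate 3 than in replicate 4. The ranks in both replicates were among the values behind the choice of the genes. Nothing is therefore read from the distance between the values of rho. The points share the same pair of libraries, and the part of base composition in these ranks was not tested.

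**Figure D3:**
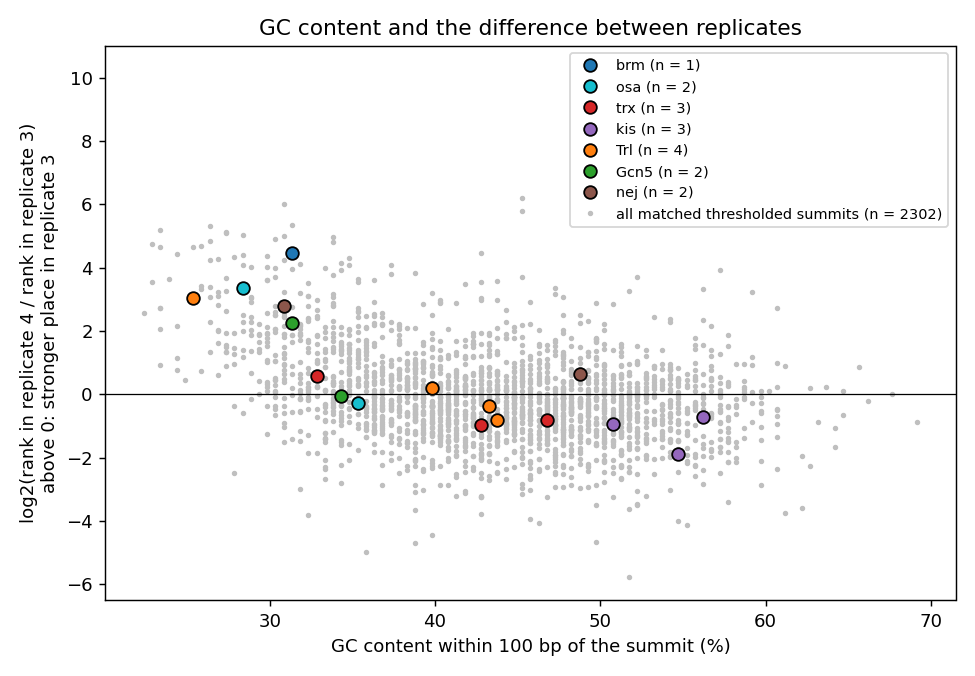
GC content within 100 bp of the summit in percent (x axis) against the log2 ratio of the rank in replicate 4 to that in replicate 3 (y axis; above 0 the summit stands higher in replicate 3). Coloured points are the 17 summits of the 7 genes and grey points all 2302 matched thresholded summits; the coloured points run from the upper left to the lower right, with brm highest and a kis summit lowest.

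Sequence was not used to choose the genes, and 10 motifs were counted within 100 bp of the summits on both strands, with overlapping matches allowed. CACGTG was at none of the 17, against 5.79% of all thresholded summits, and CACGCG was at 1, the strongest trx summit, against 9.81%. Together these family sites were at 1 of 17, against 15.0%. CAGCTG, an E box bound by proneural proteins, was at 2, both at trx, against 16.2%. CACNAG was at 4, at brm, Gcn5, kis and trx, against 26.3%. With 17 windows, a count of 0 has a Wilson 95% interval up to 18.4%, and for each of these motifs the share over all summits lay inside the interval of the 17.

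GAGAGAG, which the protein made by Trl binds, was at 4 of the 17 (23.5%, Wilson interval 9.56 to 47.3%), against 9.61% of all thresholded summits, a share just inside the lower end of that interval. Of the 4, 2 were at trx, 1 at kis and 1 at Trl itself, in the summit at 3L 14760331. The count depends on the window and the list: it was 2 within 50 bp, 8 within 200 bp, and 1 among the 1243 strongest summits of the list. The share over all thresholded summits was computed within 100 bp and for the whole list only. It is therefore no measure for these other counts. The match at kis began 98 bp from its summit. The Notch response sites GTGGGAA and GTGAGAA, which Su(H) binds, were at none of the 17, against 3.10% and 2.49% of all. CAGGTAG, a site of the early activator Zelda, was at none, against 2.57%, and the promoter elements TATCGATA and GGTCACACT were at none, against 2.77% and 1.37%. A motif match describes the letters in these windows and not an occupied site.

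To place the 9 genes among others of the same function, 86 further genes in 7 lists were looked up, which were drawn up with results of these data already known. Of the 86, 21 (24.4%) had a thresholded summit no further than 1 kb from a start site, called a promoter summit here. Of all protein-coding genes, 11.9% had one. A summit in reach was found for 39 of the 86 (45.35%), against 24.9% of all protein-coding genes. Of the 7 other subunits of the Brahma complex, 0 had a promoter summit and 4 had one in reach but further off. With osa and mor, which also had none, brm was the gene of this complex with a promoter summit among those looked up. That summit lay 132 bp from the start of Arl1 and cannot be given to either gene.

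The other lists varied, and their counts stand beside the 11.9% of all protein-coding genes with a promoter summit. Among other trithorax group genes 6 of 12 had a promoter summit, among them Kdm5, a histone demethylase gene (3 bp from its start, signal 202, rank 807), and lawc (29 bp, signal 167, rank 1177). Among chromatin remodelling ATPases and partners it was 4 of 11, including Acf (signal 287, rank 385) and Mi-2 (signal 158), whose summit was 19 bp from Su(Tpl). COMPASS family genes had 3 of 12, with Mnn1, the menin gene, at 1 bp (signal 273, rank 428) and Ptip at 480 bp (signal 179.8). Factors associated with the GAGA factor had 3 of 9, with Adf1 (signal 429, rank 147) and lola (signal 201).

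The other SAGA and ATAC subunits had 2 of 20, Sgf29 (signal 158), whose summit was 22 bp from RpL29, and Ada2b (signal 137). Other acetyltransferases and coactivators had 3 of 15, with tai, a steroid receptor coactivator gene (signal 203, rank 795), and mam, the Notch coactivator Mastermind (signal 137), as the strongest. The counts are small, and with chosen lists they are given as counts only.

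**Figure D4:**
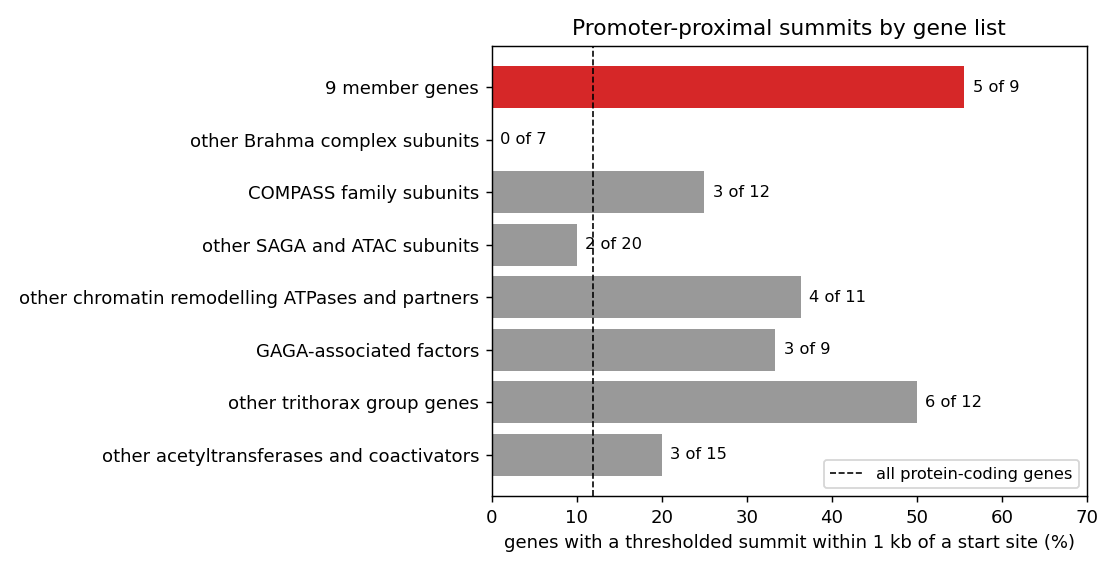
Share of the genes in each list that had a thresholded summit 1 kb or less from a start site, in percent (x axis), with the counts beside the bars; the dashed line is the share of all protein-coding genes (11.9%). The 9 genes stand at 5 of 9, the other trithorax group genes at 6 of 12, and the other Brahma complex subunits at 0 of 7.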

How the data were processed

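Peak lists of 2 ChIP-seq samples, biological replicates 3 and 4 of 1 group, were used. Per the deposited text files, 3 candidate lists on dm6 (replicate 3, replicate 4, pool) share 1 control alignment, and the irreproducible discovery rate procedure gave the thresholded list from them. Aligner, peak caller, threshold and depth: not given in the sources used here. Per the labels, DNA was sheared by sonication to fragments of 200 to 800 bp. The signal of a peak is the value that the authors deposited in the peak lists.

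Summits were taken as the peak start plus the offset in column 10, given 1-based, and matched between lists within 100 bp. Start sites and spans came from Ensembl release 115 of the same assembly, and sequences from the RefSeq copy of dm6; all peak ends lay inside its chromosomes. Of the list symbols, 4 older ones were matched through RefSeq synonyms. Genes and lists were chosen with earlier results of these data known. Named genes are the 9 members, genes sharing their summits, and up to 2 per other list with the strongest summit within 1 kb. With 1 group and genes chosen by these peaks, no test was made. Wilson intervals cover counting error only. Assignment and motif counts were checked on simulated data. The tools were matplotlib 3.10.9, pandas 2.3.3, scipy 1.17.1 and numpy 2.4.6 under Python 3.11.15. Recomputed settings were a shorter list, single replicates, merged summits, and other distances, start sites, matching limits and windows.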

Additional observations from a re-analysis of the deposited data

How the results depend on the processing

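Among 35 recomputed counts, 30 stayed within 1.5 times the reported value, some of them by construction. These include the count of 14 with a replicate left out. They also include every count with summits within 500 bp merged, since the closest of the 17 summits lay 587 bp apart. The same 7 genes had a summit in reach, and the same 5 one within 1 kb of a start site, among the 1243 strongest of the list and with the strongest peaks of either replicate alone. The signals and the ranks in both replicates were among the values behind the choice of the genes, so this says nothing of stability. The 7 genes became 5 when only summits inside the gene counted (brm and Gcn5 dropped out), and 5 when a summit counted only for the gene with the nearest start site (brm and osa dropped out). The 17 summits in reach became 11 when that shorter list was used and 10 under that nearest-start rule. The 8 summits holding any of the 10 motifs became 3 in the shorter list, 4 within 50 bp and 15 within 200 bp. The share of all thresholded summits holding any of the 10 was not computed, so these counts are not read as high or low. Leaving out a replicate gave 17 (without replicate 3) to 18 (without replicate 4) summits in reach, 8 to 10 with a motif, and 7 and 5 genes. The 14 summits among the strongest of both replicates cannot be tested by leaving a replicate out: either way the same overlap of lists was counted, and the 14 it gave says nothing of stability. The cause of these changes was not tested, beyond the smaller list, narrower rule or longer window itself. Of 79 recomputed values for single genes and motifs, 18 moved. For motif counts this meant a change of more than 1.5 times, or from none to some. For the rank of a gene's strongest summit, the limit was set by the difference between the ranks in the replicates. With a replicate left out, that rank was the best in reach in the other replicate, thresholded or not. The rank part of this count therefore says nothing of stability. Read depth is unknown, so how far depth limits these lists cannot be stated. No paired analysis was possible because there is 1 group.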

Other observations

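Replicate 3 placed 4 summits at these genes among its 2487 strongest that the thresholded list lacks. At kis, the summit at 2L 224832 had a signal of 101 (rank 968) and lay 115 bp from the nearest pooled candidate, and that at 2L 246953 ranked 1706 and was 27 bp from a pooled candidate at rank 4197 with CACGTG within 100 bp. At Trl, a summit at 3L 14756103 ranked 1746, and at osa one at 3R 17717209 ranked 2251. Replicate 4 had no such summit: each of its peaks among the 2487 strongest in reach of the 9 genes matched a thresholded summit within 100 bp. The exact letters CACGTG, absent from all 17 thresholded windows, occurred in 2 windows below the threshold, at this kis candidate and at an osa candidate of rank 11998 in intron 4.

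Inside nej, a weak candidate 226 bp upstream of an inner start site, at rank 19475, held both CACGCG and CAGCTG, and ranked 6000 in replicate 4 with no match in replicate 3. The candidates in the 3′ UTR of nej, at ranks 8768 and 16194, were matched in both replicates. All 9 genes are on the minus strand of their chromosome arms.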
